A study of Caenorhabditis elegans with 2 samples.

Results

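The vesicle traffic genes of *Caenorhabditis elegans* were taken as the protein-coding genes whose symbols start with sec-, copa-, copb-, copd-, cope-, copg-, copz-, vps-, snx-, rab-, arf-, arl-, cogc- or exoc- followed by a number, which gave 102 of 19985 genes. They were examined for binding of LSY-2, a C2H2 zinc finger transcription factor, by chromatin immunoprecipitation and sequencing (ChIP-seq). The animals were embryos of mixed stages and both sexes from strain OP367, genotype unc-119(tm4063) III; wgIs367, in which the inserted transgene wgIs367 expresses LSY-2 tagged with enhanced green fluorescent protein. There was 1 group with 2 biological replicates and no comparison group. The promoter that drives the transgene was not given in the sources used here, and no control list was used, so signal that active promoters share in any immunoprecipitation was not tested. A gene was called bound when the summit of one of the 2568 peaks in the authors' list filtered by irreproducible discovery rate (IDR) lay between 1000 bp before and 300 bp after one of its annotated 5' ends. The call places a summit, and does not show that LSY-2 touches the DNA there or acts on the gene. Each peak carries the authors' own signal value, which ranks peaks within a list only, and the files used here give no read depth.

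Proteins enter the secretory pathway through the SEC-61 channel of the endoplasmic reticulum (ER), leave the ER in vesicles coated by COPII, and are returned from the Golgi by vesicles coated by COPI. Rab and Arf GTPases mark each membrane and recruit coats and tethers, and tethering complexes such as the exocyst, COG, GARP and HOPS catch incoming vesicles before fusion. Endosomal cargo is sorted into internal vesicles by the ESCRT complexes for degradation, or is sent back by retromer and sorting nexins. In *C. elegans* embryos these routes serve eggshell formation, cytokinesis and cell polarity.

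LSY-2 summits lay at 48 of the 102 vesicle traffic genes, or 47.1% (95% Wilson interval 37.7 to 56.7), against 12.6% of all protein-coding genes. The interval covers only the sampling of genes, and no test was made of the difference. With the upper 50% of the IDR peaks by signal 27 members were bound (26.5%), against 7.35% of all genes. Bound members were found at all strengths: their median rank among the 2568 peaks was 1121, against 1053 for all 2519 bound genes, and 19 of the 48 lay among the 642 strongest peaks, against 809 of the 2519. Every chromosome held bound members. On chromosome X 6 of 12 members were bound, against 6.55% of all its genes, and on chromosome V 4 of 10, against 7.01%. Chromosome IV had 10 of 18, against 12.1%, chromosome I 12 of 24, against 20.4%, chromosome III 8 of 18, against 20.9%, and chromosome II 8 of 20, against 12.9%.

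**Figure D1:**
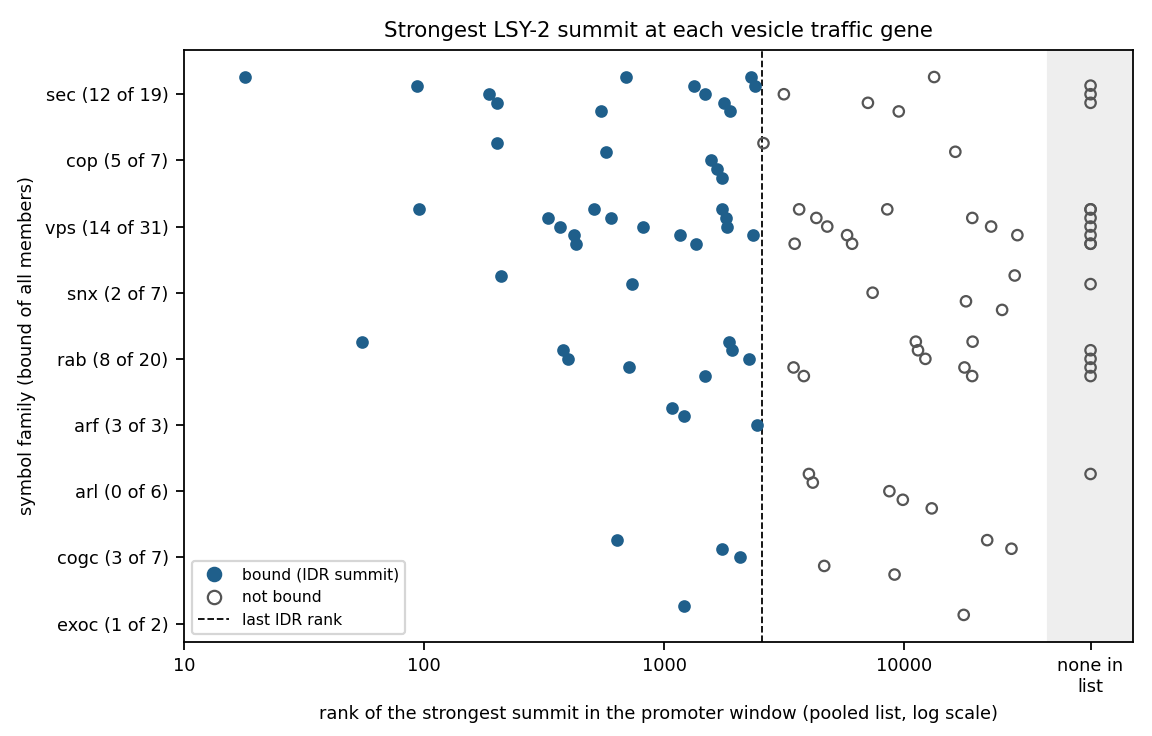
Rank of the strongest LSY-2 summit in the promoter window of each of the 102 vesicle traffic genes in the pooled list of 30000 peaks (x axis, log scale), by symbol family. Filled points are bound genes, open points are not bound, the dashed line marks the last IDR rank of 2568, and the grey column holds genes with no summit in the list; the 3 arf members are all bound and the 6 arl members are not.

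The strongest peak lay at *sec-24.1* (WBGene00004755), a gene for the COPII coat protein that binds cargo. It spanned 11566121 to 11566552 on chromosome IV of build ce11, with a pooled signal of 1858 at rank 18, a signal of 913 at rank 20 in replicate 1 and of 958 at rank 16 in replicate 2. Its summit was -141 bp from the 5' end, where a negative value means upstream, and lay in no other gene's window. The second was at *rab-11.1* (WBGene00004274), a GTPase of recycling endosomes, with a signal of 1311 at rank 55 and replicate ranks of 54 and 52. That summit was -703 bp from *rab-11.1* but -278 bp from *rpl-7*, a large ribosomal subunit protein gene on the other strand. The third, at *sec-61.A* (WBGene00013311), had a signal of 944 at rank 93 and replicate ranks of 96 and 99, and lay 151 bp inside the nearest *sec-61.A* 5' end and -566 bp from *rps-18*, a small ribosomal subunit protein gene. So 2 of the 3 strongest summits at vesicle traffic genes were shared with a ribosomal protein gene, and these were the only ribosomal protein genes among all 35 genes that shared a summit.

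Further strong peaks stood at genes of several steps of the pathway. The ESCRT-II gene *vps-25* (WBGene00012193) had a signal of 936 at rank 95, with replicate ranks of 98 and 97 and its summit -3 bp from a 5' end. It also had a weaker summit at rank 780, and *uba-2*, which encodes a subunit of the SUMO activating enzyme, shared the stronger one. The translocon gene *sec-61.B* (WBGene00021427) had a signal of 389 at rank 187, with replicate ranks of 185 and 183. Its summit, at -463 bp, was nearer to *trap-3*, a gene of the translocon-associated TRAP complex, at -307 bp, so both genes of this divergent pair belong to protein entry into the ER. The γ-COP gene *copg-1* (WBGene00011775) had a signal of 316 at rank 201, with replicate ranks of 209 and 197, and shared its summit with no gene. Beside it in rank were *sec-61.G* (WBGene00001303), the third translocon subunit gene, at rank 202 with replicate ranks of 208 and 198, and *snx-3* (WBGene00006503), a sorting nexin known in *C. elegans* for recycling the Wnt carrier MIG-14, at rank 210 with replicate ranks of 200 and 218. The *snx-3* summit was shared with *rad-54.L*, at -344 bp from *snx-3* and -332 bp from its partner. The replicates thus placed these 8 peaks, taken from a list filtered for replicate agreement, within 20 ranks of each other. The summits of *sec-61.A*, *vps-25* and *snx-3* lay in sequence that the assembly soft-masks as repeats or low complexity, as did those of *copz-1* and *vps-51*.

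The sequence under a summit, with 50 bp on each side, is shown for the 8 strongest bound members whose window held no annotated exon or UTR, to let the letters under the strongest signals be compared. Windows on 1 of the chromosomes were not considered. The windows are *sec-24.1* (chrIV:11566285-11566385, minus strand), *sec-61.B* (chrIV:2389088-2389188, minus), *copg-1* (chrIV:10151596-10151696, plus), *sec-61.G* (chrV:10897323-10897423, minus), *vps-15* (chrII:11916314-11916414, minus), *vps-37* (chrV:5592436-5592536, plus), *rab-7* (chrII:11967683-11967783, minus) and *vps-32.1* (chrII:6589011-6589111, plus), read 5' to 3' on the member's strand from RefSeq WBcel235, the assembly of build ce11. Capitals mark matches, on either strand, to any of the 6 motifs or 8 hexamers spelled out in the next paragraphs.
sec-24.1: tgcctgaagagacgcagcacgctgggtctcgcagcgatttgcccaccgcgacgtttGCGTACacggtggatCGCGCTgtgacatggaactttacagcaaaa
sec-61.B: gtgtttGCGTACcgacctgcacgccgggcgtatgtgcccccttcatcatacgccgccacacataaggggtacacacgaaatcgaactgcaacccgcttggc
copg-1: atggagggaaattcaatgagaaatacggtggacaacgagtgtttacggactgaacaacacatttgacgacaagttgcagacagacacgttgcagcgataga
sec-61.G: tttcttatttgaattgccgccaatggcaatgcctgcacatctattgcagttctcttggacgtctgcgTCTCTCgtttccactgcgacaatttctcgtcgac
vps-15: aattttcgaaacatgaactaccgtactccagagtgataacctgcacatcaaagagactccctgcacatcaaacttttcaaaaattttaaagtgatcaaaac
vps-37: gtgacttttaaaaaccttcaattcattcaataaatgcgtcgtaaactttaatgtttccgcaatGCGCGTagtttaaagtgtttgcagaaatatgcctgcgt
rab-7: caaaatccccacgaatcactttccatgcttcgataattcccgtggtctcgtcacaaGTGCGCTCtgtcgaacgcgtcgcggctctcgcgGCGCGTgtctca
vps-32.1: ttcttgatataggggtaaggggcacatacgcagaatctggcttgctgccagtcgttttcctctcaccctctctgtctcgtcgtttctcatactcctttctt
A match is a run of letters and not a site of binding. GCGTAC stands in both *sec-24.1* and *sec-61.B*, *rab-7* holds matches to several hexamers, and *copg-1*, *vps-15* and *vps-32.1* hold no match. The letters CCTGCAC were picked by reading these 8 windows, where *sec-61.B*, *sec-61.G* and *vps-15* hold them. These were the only 3 of all 51 member summit windows with the letters (5.88%). The share was 1.18% of 1777 IDR summits in other genes' windows and 0.356% of promoters without a summit. Because the letters were picked from member windows, the member share is no support for them.

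The 51 summits in member windows were also compared as a set with the 1777 IDR summits in other genes' windows, always over 50 bp on each side and both strands. Median GC content was 48.5% at member summits, against 46.5% at the other summits and 33.7% in windows of the same length centred -225 bp from the outermost 5' end of 19973 genes. Hexamers of largest excess were picked on the other genes' summits only, against promoters of genes without a summit, among hexamers in at least 5% of those summits. The 8 found are rich in G and C, and several overlap each other. ACGCGC stood in 12 of the 51 member windows (23.5%), against 19.7% of other summits and 1.68% of promoters without a summit. For GCGCAC they were 11 of the 51, against 285 of the 1777 and 1.48%, and for GCGTAC 15.7%, against 10.3% and 1.10%. The hexamer GAGCGC was found in 13.7%, against 17.2% and 1.40%, and the related AGCGCG in 9.80%, against 13.9% and 1.32%. The self-complementary GCGCGC had 11.8%, against 11.1% and 0.948%, its shifted form CGCGCG also 11.8%, against 8.10% and 0.798%, and GCGGAC 3.92%, against 7.54% and 0.833%. Each of these hexamers, looked up because it was frequent at the other summits, was thus present in at least 2 member windows. The differences in share from the other summits were not tested, nor was the part of base composition, since summits are richer in GC than promoters.

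The other 6 motifs were chosen for their known factors. The GAGA letters GAGAGA were in 17.6% of member windows, against 20.0% of other summits and 6.91% of all 19973 promoters. TGACGTG, the core of an unfolded protein response element, was in 3 of 51 windows (5.88%), against 2.03% and 0.836%. The E-box CACGTG was in 0 of 51, which allows a share of up to 5.88%, against 2.25% and 1.59%, and the Sp1-like CCGCCC in 1 (1.96%), against 7.60% and 2.21%. GATAAG, the letters of GATA factors, was in 3 windows, against 1.91% and 4.76%, and the E2F-like TTCGCGC in 2, against 4.22% and 0.686%. Counts of 0 to 3 windows leave these shares too uncertain to rank.

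All 3 SEC-61 channel subunit genes were bound, at ranks 93, 187 and 202. The gene *sec-11*, which encodes the catalytic subunit of the signal peptidase, had no summit in its window even in the pooled list of 30000 peaks. It was called with the window of 2000 bp before to 500 bp after a 5' end. Of the signal peptidase genes with other symbols, *spcs-2* was bound at rank 349, and *spcs-1* and *spcs-3* were not bound. Of 7 genes of the COPII coat and ER exit sites with *sec* symbols 5 were bound. Genes of this step with other symbols, such as *sar-1*, are counted further on, among the genes that the symbol rule leaves out. Besides *sec-24.1* these were *sec-16A.2*, with a signal of 55.2 at rank 1335, and *sec-16A.1*, with 45.1 at rank 1777 and a second summit at rank 2361, both for scaffold proteins of the exit site. The outer coat gene *sec-31* had a signal of 51.6 at rank 1482, and *sec-12*, which encodes the exchange factor for the GTPase SAR-1, had 42.9 at rank 1889. The inner coat gene *sec-23*, whose product pairs with SEC-24, was not bound, and its best summit in the pooled list stood at rank 7080. The paralogue *sec-24.2* was not bound either, with a best pooled rank of 9520 and a signal of 13.5, against rank 18 and 1858 at *sec-24.1*. With the longer window *sec-24.2* was called. With the upper 50% of peaks *sec-24.1* was the only 1 of the 7 COPII and exit site genes still bound, against 7.35% of all genes.

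COPI had 5 of 7 subunit genes bound, *copg-1*, *copz-1*, *cope-1*, *copa-1* and *copd-1*. Below *copg-1* in signal stood the other four, with 96.9 for *copz-1*, 49.4 for *cope-1*, 47.3 for *copa-1* and 45.8 for *copd-1*, at ranks 574, 1568, 1670 and 1739. The *cope-1* summit was -34 bp from its 5' end and shared with no gene, whereas *copz-1* shares its summit with *cyn-4* and *copa-1* with *gst-43*. The 2 β subunit genes were not bound. *copb-2* missed the call narrowly, at rank 2598 of the pooled list with a signal of 33.0, just outside the last IDR rank of 2568, and the bound member nearest to that limit was *arf-6*, at rank 2448 with a signal of 34.8. With replicate 2 alone *copb-2* was called. *copb-1* stood at rank 16384, and was called with the window of 2000 bp before to 500 bp after a 5' end. The upper 50% of peaks left 2 COPI genes, *copg-1* and *copz-1*, where 7.35% of all genes were bound. For the SNAREs among the members, *sec-22*, which works between ER and Golgi, was bound at rank 2392 with *stau-1* nearer to the summit, and *sec-20* was not.

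**Figure D2:**
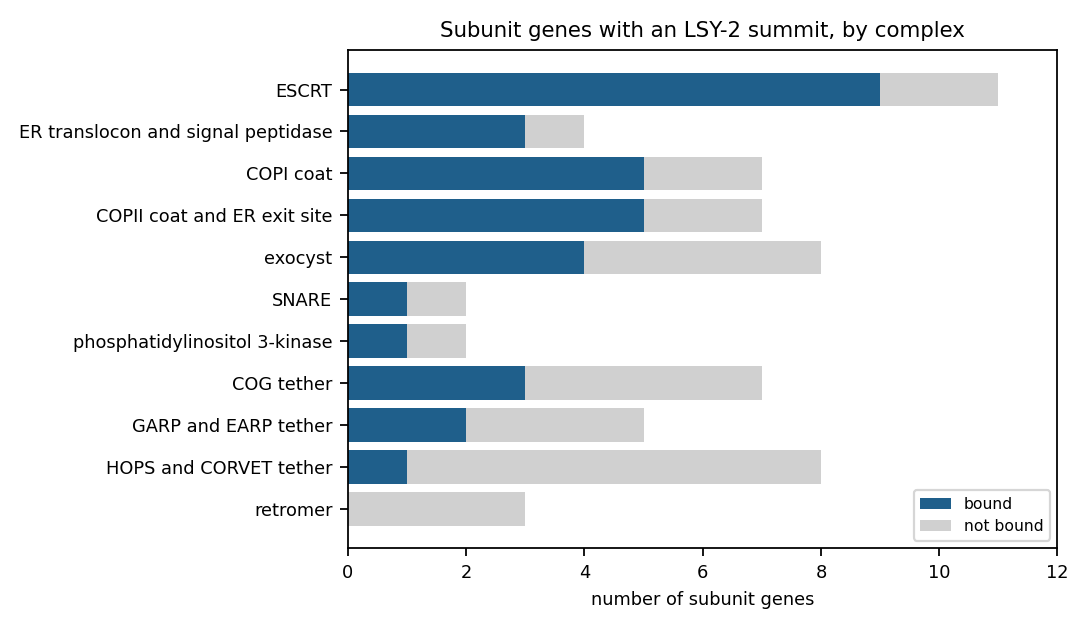
Number of subunit genes with an LSY-2 summit (blue) and without one (grey) in 11 complexes of the vesicle traffic pathway (x axis, genes). ESCRT, counted by its *vps* symbols, has 9 of 11 bound, and COPI and COPII, the latter counted by its *sec* symbols, 5 of 7 each. HOPS and CORVET have 1 of 8, and retromer 0 of 3, against 12.6% of all protein-coding genes.

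Of the Arf family, all 3 *arf* genes were bound, *arf-5* at rank 1077 (signal 63.9), *arf-1*, whose product recruits COPI, at rank 1206 (59.1), and *arf-6*, which acts at the plasma membrane, at rank 2448 (34.8), and in each case no gene had a nearer 5' end. The *arf-1* summit lay inside the annotated gene, at -441 bp from an internal 5' end, and was not called with the outermost 5' end alone. None of the 6 *arl* genes, which encode Arf-like GTPases, was bound. Of these *arl-8*, known for lysosome and axonal vesicle transport in *C. elegans*, and the cilium gene *arl-13* came closest, at pooled ranks of 4019 and 4171, *arl-13* was called with replicate 2 alone, and *arl-3* had no summit in its window. Groups of 3 and 6 genes are small. The 95% Wilson interval for 0 of 6 reaches 39.0% and that for 3 of 3 starts at 43.9%, against 12.6% of all genes.

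Of 20 *rab* genes 8 were bound: *rab-11.1*, *rab-18*, *rab-7*, *rab-5*, *rab-1*, *rab-8*, *rab-14* and *rab-39*. They cover the ER to Golgi step (*rab-1*, rank 1481), early and late endosomes (*rab-5*, rank 713, and *rab-7*, rank 397) and lipid droplets and the ER (*rab-18*, rank 380). The summits were mostly far upstream. *rab-14* had its stronger summit at -980 bp, *rab-7* at -802 bp, *rab-5* at -702 bp, *rab-8* at -594 bp and *rab-1* at -530 bp, and 5 of the 8 had another gene's 5' end nearer to the stronger summit. *rab-7*, for example, shares its summit with W03C9.5, at -189 bp, and with *mex-1*, a gene for an embryonic RNA-binding protein, at -904 bp. The *rab-18* summit lay 20 bp inside its 5' end and in the windows of *kbp-4* and *par-2*, *par-2* being a cortical polarity gene. With a window of 500 bp before to 100 bp after a 5' end, 3 *rab* genes remained bound. For that window no share of all genes is given. Counting each summit only for the nearest gene left 4, against 8.84% of all genes. The synaptic vesicle gene *rab-3*, at pooled rank 17886, and *rab-10*, at 3827, were among the 12 not bound. Both genes of the pair *rab-6.1* and *rab-6.2* were unbound, at pooled ranks of 11451 and 11212, while *rab-11.2*, unlike *rab-11.1*, had no summit in its window in the pooled list.

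Of the tethers, the exocyst, which works at the plasma membrane, had 4 of 8 genes bound (95% Wilson interval 21.5% to 78.5%), namely *sec-15* (rank 547), *sec-3* (rank 691), *exoc-7* (rank 1213) and *sec-5* (rank 2298), and *sec-6*, *sec-8*, *sec-10* and *exoc-8* were not bound. The COG complex of the Golgi had 3 of 7 (42.9%), *cogc-2*, *cogc-8* and *cogc-3*, at ranks 636, 1743 and 2065. GARP and EARP had *vps-51* and *vps-50* of 5 (11.8% to 76.9%), at ranks 604 and 2341. The *cogc-3* summit lay inside the annotated gene, 124 bp past an internal 5' end, and was not called with the outermost 5' end alone. The *vps-51* summit, at -250 bp, was nearer to *lin-35*, the retinoblastoma homologue, at -168 bp. HOPS and CORVET, the tethers of late and early endosomes, had 1 of 8, or 12.5% (2.24% to 47.1%), against 12.6% of all genes. With so few genes the intervals of these tethers overlap, and no difference between them was tested. The bound gene was *vps-33.1*, at rank 1815, with ranks of 1174 in replicate 1 and 6299 in replicate 2, and its paralogue *vps-33.2* had no summit in its window. Without replicate 1, and with the upper 50% of peaks, no HOPS or CORVET gene was bound. The upper 50% of peaks left 3 genes of the exocyst and 1 each of COG and of GARP and EARP, and counting only the nearest gene left 2 of the exocyst and 1 of GARP and EARP. Of the 7 unbound genes *vps-39*, *vps-11* and *vps-18* had pooled ranks from 4792 to 8525, and the others had no summit in the list.

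Of the 11 ESCRT genes with *vps* symbols 9 were bound (81.8%, 95% Wilson interval 52.3 to 94.9), against 12.6% of all genes. Of 9 ESCRT subunit and partner genes with other symbols 2 were, and the ESCRT-I genes *tsg-101* and *mvb-12* were among those not bound. The 9 with *vps* symbols were the ESCRT-I genes *vps-37* (signal 140, rank 370) and *vps-28* (60.5, rank 1165), the ESCRT-II genes *vps-25* (936, rank 95) and *vps-22* (106, rank 511), and the ESCRT-III and related genes *vps-32.1* (129, rank 420), *vps-60* (124, rank 431), *vps-2* (54.9, rank 1353) and *vps-24* (44.2, rank 1823). The ninth, *vps-4* (75.7, rank 818), encodes the ATPase that takes ESCRT-III apart. Their peaks had ranks from 98 to 1935 in replicate 1 and from 97 to 2529 in replicate 2. All 9 were bound in each replicate alone. With the upper 50% of peaks 7 were bound, against 7.35% of all genes, and counting only the nearest gene left 6, against 8.84%. At *vps-37*, *vps-60*, *vps-4* and *vps-28* no other gene's window held the summit, while *vps-2*, *vps-22* and *vps-32.1* each had a nearer partner, *tiar-2*, C27F2.9 and *icd-1*. The unbound members were *vps-36*, the remaining ESCRT-II gene, at pooled rank 6081, and *vps-20* at 23101. The 3 retromer genes *vps-26*, *vps-29* and *vps-35* were not bound, although *vps-35* was called with replicate 2 alone and stood at pooled rank 3659. For 0 of 3 the 95% Wilson interval reaches 56.1%, which takes in the 12.6% of all genes. Of 7 sorting nexin genes *snx-3* and *snx-13* were bound (28.6%, 8.22 to 64.1). The kinase gene *vps-34* had a pooled rank of 29720, and *vps-15*, for its regulatory subunit, was bound at rank 327 through a summit nearer to *hmg-12*. Elsewhere, *vps-45*, for an SM protein of endosomal fusion, was bound at rank 1745 with its summit -4 bp from the 5' end, and *vps-13* was not.

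Summits lay close to the 5' ends at most members. The median position was -236 bp, against -225 bp for all bound genes, 44 of 48 summits (91.7%) were upstream, against 95.3%, and 30 (62.5%) lay within 300 bp, against 65.5%. The window reaches further upstream than downstream, which favours upstream positions. A single summit was found at 45 of the 48 genes, and *vps-25*, *sec-16A.1* and *rab-14* had more. Of the 48 summits 32 (66.7%) also fell in the window of another gene, against 59.2% for all bound genes, and 32 of the 35 partner genes lay on the opposite strand. At 16 members a partner's 5' end was nearer. With each summit counted only for the gene with the nearest 5' end, 33 members were bound, or 32.4%, against 8.84% of all genes. That count includes *rab-14*, whose weaker summit at -418 bp is its own nearest.

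**Figure D3:**
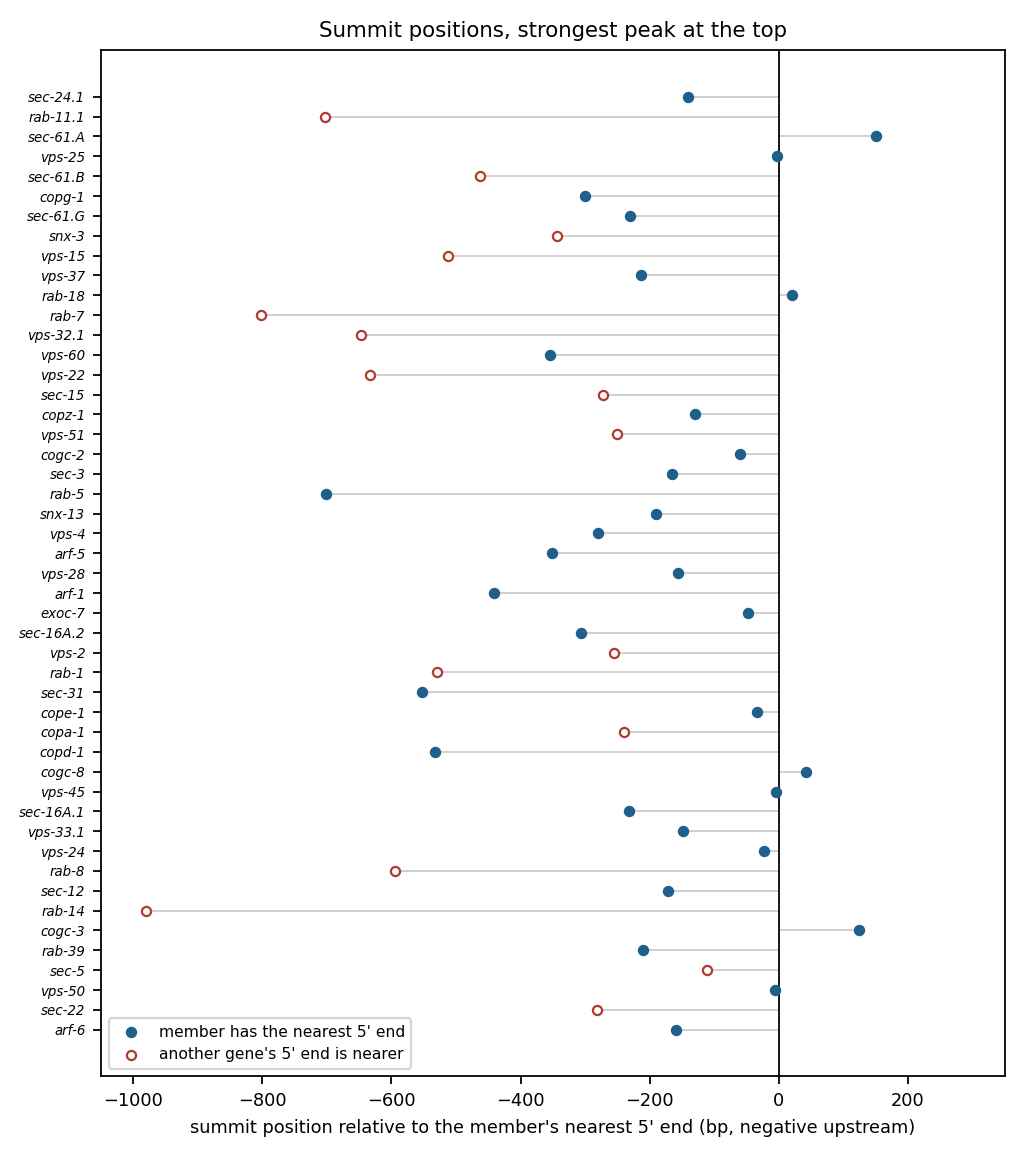
Position of the strongest summit relative to the nearest 5' end of each of the 48 bound members (x axis, bp, negative upstream), with the strongest peak at the top. Filled points are members whose own 5' end is the nearest, open points the 16 with a nearer partner, such as *rab-11.1* at -703 bp.

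The arrangement of neighbours went along with these calls. A divergent protein-coding gene with a 5' end at most 1000 bp upstream was present at 35 members (34.3%), against 18.7% of all genes, and 24 of these 35 were bound (68.6%), against 34.8% of all such genes. Of the remaining genes, 29 members (28.4%) had the 3' end of a gene on the same strand at most 500 bp upstream, as genes within an operon do, against 17.8% of all genes. Among these 29 tandem genes 7 were bound, against 8.59% of all tandem genes. With neither neighbour 17 of 38 were bound (44.7%), against 7.22%. The member share was the higher one in all 3 classes. All 3 retromer genes, 4 of 8 HOPS and CORVET genes and 3 of 6 *arl* genes were tandem genes, against 1 of the 11 ESCRT genes with *vps* symbols, and the part of the arrangement in the counts of these complexes was not tested. Operon annotation was not used here, so a summit at the head of an operon is not counted for its downstream genes.

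**Figure D4:**
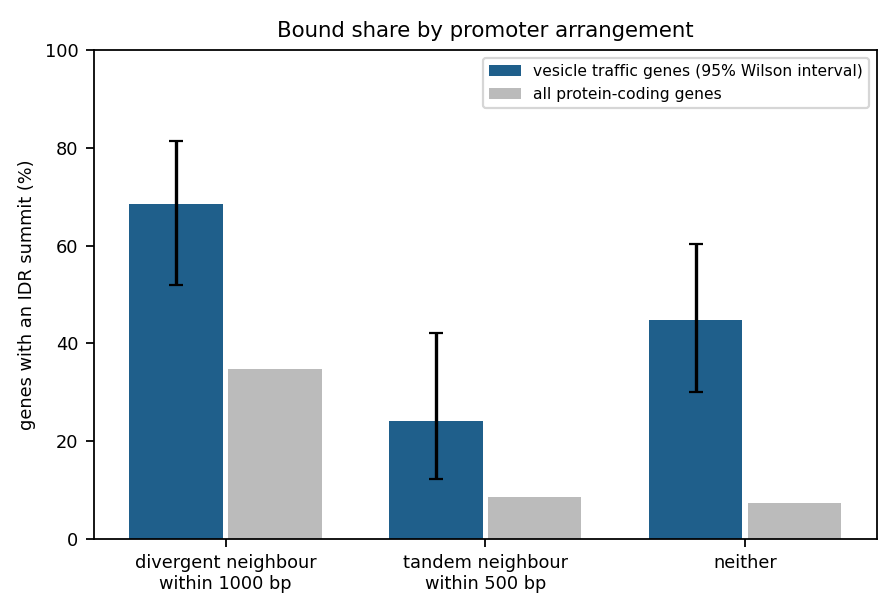
Share of genes with an IDR summit (y axis, percent) among vesicle traffic genes (blue, with 95% Wilson intervals) and all protein-coding genes (grey), by neighbour of the promoter. The members' shares are 68.6% beside a divergent gene and 44.7% with neither neighbour, against 34.8% and 7.22% for all genes.

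Both replicates found the same members for the most part. The IDR filter keeps peaks that agree between these 2 replicates, so agreement among bound members is in part fixed by that choice. Among the 2568 highest-signal peaks of replicate 1 alone 45 members were bound, against 12.2% of all genes, and with replicate 2 alone also 45, against 12.4%. Of the 48 bound members 39 (81.2%) were bound in each replicate alone, against 78.2% of all bound genes, and all 48 peaks overlapped a peak in each full list by at least 1 bp. All 27 members of the upper 50% of peaks were bound in each replicate alone, but 12 of the 21 weaker ones were. *vps-33.1*, *rab-8*, *cogc-3*, *sec-5*, *sec-22* and *arf-6* were bound in replicate 1 and not in replicate 2, with replicate 2 ranks from 2844 for *cogc-3* to 6299 for *vps-33.1*. *rab-14*, *rab-39* and *vps-50* were bound in replicate 2 only, with replicate 1 ranks of 3039, 2927 and 2632. The last of these is close to the limit of 2568 in both replicates, with a rank of 2446 in replicate 2.

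**Figure D5:**
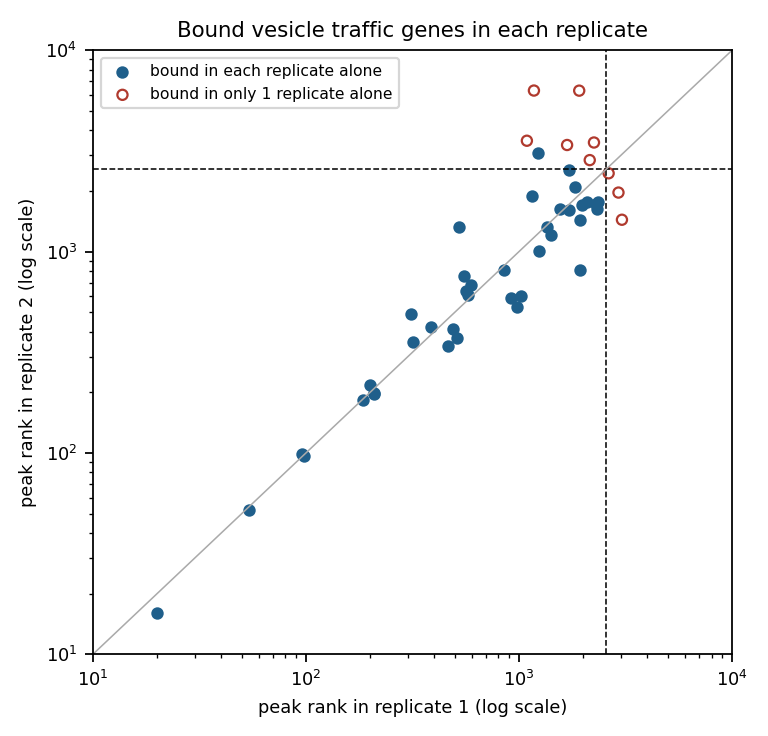
Rank of the peak at each of the 48 bound members in replicate 1 (x axis) and replicate 2 (y axis), both on log scales; dashed lines mark rank 2568 and the grey line marks equal ranks. Filled points are the 39 members bound in each replicate alone, where *sec-16A.1* lies above the dashed line because it is bound in replicate 2 through another summit, and open points are the 9 bound in only 1.

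The 54 unbound members were not without signal in the longer list, which the deposited metadata describe as peaks together with background. A summit of the pooled 30000 lay in the window of 38 of them, with a median rank of 9708.5, and 11 had a rank of 5000 or better, led by *copb-2*, *sec-8*, *rab-19*, *vps-52* and *vps-35*, at ranks from 2598 to 3659. Together with the bound genes 86 of 102 members (84.3%) had such a summit, against 40.3% of all genes. The other 16 unbound members had none, among them *sec-6*, *sec-10*, *vps-16*, *vps-41* and *rab-37*. Embryos of many cell types were pooled, so binding in few cells and weak binding in many cannot be told apart.

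Genes of the same pathway that the symbol rule leaves out were bound at 59 of 167 (35.3%, 28.5 to 42.8), against 12.6% of all genes. The list of signal recognition and translocation genes had 11 of 19, led by *trap-2* at rank 117 and *trap-3* at rank 187, and p24 cargo receptors and ER export had 8 of 15, led by *ile-2*, for a lectin-type cargo receptor, at rank 117 and *tmed-10* at rank 307. A single summit between *ile-2* and *trap-2* gives both their rank. The *trap-3* summit is the one also counted for the member *sec-61.B*. Vacuolar ATPase genes had 8 of 21, led by *vha-1* and *vha-15* at ranks 245 and 309, and clathrin, adaptor and dynamin genes 8 of 22, led by *aps-3*, which shares its summit with *rpl-17*, and *apg-1*, at ranks 160 and 213. The list of Rab and Arf regulators, which also holds GTPase genes such as *unc-108* and *sar-1*, had 12 of 39. It was led by *grp-1*, an Arf exchange factor gene, at rank 48 and *unc-108* at rank 522. The latter encodes RAB-2, a Rab that the count of *rab* genes leaves out by its symbol. SNAREs and SM proteins had 8 of 32, led by the Golgi syntaxin gene *syx-5* at rank 16 and *nbet-1* at rank 787. The lowest shares were those of ESCRT partners, with *alx-1* and *did-2* of 9, at ranks 1645 and 1979, and the TRAPP tether, with *trpp-10* and *trpp-9* of 10, at ranks 1400 and 1833. These lists are small, so their shares have wide intervals, 6.32 to 54.7 for the ESCRT partners and 36.3 to 76.9 for signal recognition and translocation.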

How the data were processed

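LSY-2 ChIP-seq in mixed-stage *C. elegans* embryos was represented by peak lists of 2 biological replicates. The lists of 30000 peaks are, per the deposited metadata, peaks together with background that served as input for IDR, and the list of 2568 derives from them. The authors' signal per peak is on a scale set within each list, and the deposited summit offset is in bp, another value the authors gave. Which aligner and peak caller made them, and at which IDR limit, is not given in the sources used here, and read depth is unknown. The ce10 lists were not used.

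Summits were placed on ce11 with Ensembl release 115 (WBcel235), using 5' ends of protein-coding transcripts. Shares have 95% Wilson intervals, and no test of a gene list was made. A replicate's value is its strongest peak that overlaps by at least 1 bp. Members and lists were chosen with earlier results of these data known. Of 181 related symbols 167 matched. Text names members by role, the strongest and weakest, and paralogue pairs. The hexamer search, over 2080 hexamers, and the letters CCTGCAC were added after seeing the data.

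Alternatives were the upper 50% of peaks by signal, each replicate alone, windows of 500 and 100 bp or 2000 and 500 bp, peak midpoints, nearest or outermost 5' ends, unmasked summits and merged peaks. Assignment was tested on 30 planted summits, of which 30 were recovered. Scripts ran in Python 3.11.15 with pandas 2.3.3, numpy 2.4.6 and scipy 1.17.1, and plots were drawn with matplotlib 3.10.9.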

Additional observations from a re-analysis of the deposited data

How the results depend on the processing

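The count of 48 bound members lay within 1.5 times under 9 of 10 alternatives. It ran from 33 with the nearest 5' end only to 61 with the window of 2000 bp before to 500 bp after a 5' end. A longer window can take in more summits at any gene, and a shorter one fewer. Of all genes 8.84% were bound with the nearest 5' end only. For the other windows, outermost ends, midpoints, unmasked summits and merged peaks, no share of all genes is given. The alternative outside 1.5 times was the upper 50% of IDR peaks by signal, which by construction leave fewer summits, with 27. There the related genes had 34 bound, and the median rank of bound members was 431 against 1121. Without replicate 1 or without replicate 2 that median was 811 or 1018, each in the list of the remaining replicate, and the median position was -250 or -232 bp against -236 bp. The position was -200.0 bp with the shorter window and -307 bp with the longer one. By family, the upper 50% of peaks left 6 of 12 *sec*, 9 of 14 *vps*, 4 of 8 *rab*, 2 of 5 COPI and 1 of 3 *cogc* calls. Of the 48 bound members 13 were bound under every alternative and 35 lost the call under at least 1. The window of 500 bp before to 100 bp after a 5' end ended 12 calls, nearest assignment 15, and leaving out soft-masked summits 5, while 14 unbound members gained one somewhere. With each gene's outermost 5' end alone, *arf-1* and *cogc-3* lost theirs. Peak midpoints and merged peaks changed no member's call. No paired analysis was possible because there is 1 group and no test. Without read depth, the lists do not show how far sequencing limited weak peaks.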
